A study of Mus musculus with 24 samples.

Results

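Described here were 10 genes of the cell cycle, Pcna, Top2a, Ncapg2, Birc5, Ccna2, Ccnb1, Cdk1, Cks2, Mki67 and Stmn1, out of 55335 genes quantified in blood cells and 35045 gene names quantified in surface RNA. The 10 were chosen by name with their measured values in these same libraries in view, so the values and folds below are a description of the 10 and carry no test. Each of the 10 was listed in the tables of all 9 blood libraries and in all 5 surface tables.

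The study measured RNA exposed on the surface of intact mouse immune cells, and the series also holds libraries of total RNA from blood. In the surface assay, fixed cells held on lectin-coated beads were given a DNA probe with a T7 promoter and random protruding bases that pair with surface RNA, and T7 RNA polymerase ran from the probe onto that RNA and copied it in place. There were 3 surface libraries each of B cells, T cells and NK cells from spleen and of HSPC (hematopoietic stem and progenitor cells) and monocytes from bone marrow, for 15 in all. The cells came from C57BL/6 mice with the genotype given as WT. Cells were taken with commercial kits, which removed lineage-positive cells in the case of HSPC and gave CD8 T cells in the case of T cells. Monocyte libraries were sequenced on a DNB platform and the other 12 on a HiSeq platform, so platform and cell type cannot be told apart for monocytes. The 9 blood libraries held total RNA of PBMC (peripheral blood mononuclear cells) of wild type genotype under treatments written ct, WT and Y, with 3 libraries each. The labels do not explain these letters, which are kept as written, and do not say whether replicates came from separate animals, so the p-values below measure only the spread between these libraries. Ages were not given in the sources used here.

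A dividing cell copies its DNA in S phase and separates the copies in mitosis, and the genes for these steps are switched on together shortly before they are needed. Resting lymphocytes and circulating monocytes have mostly left the cycle, whereas progenitors in the marrow divide often. Proliferation transcripts are therefore used as a read-out of the share of cycling cells in a tissue. In bulk libraries, fewer cycling cells and less RNA per cell cannot be told apart.

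Many cell cycle promoters share short sequence elements. CCAAT, or ATTGG when read from the other strand, is bound by the factor NF-Y. TTTGAA, read as TTCAAA from the other strand, is the core of the cell cycle genes homology region, which the DREAM and MuvB complexes bind. Of the forms of the E2F site, TTCCCGC was searched together with its reverse complement GCGGGAA. The second form searched was TTGGCGC, whose reverse complement is GCGCCAA. A window of 300 bases per start site, 250 before and 50 after, was available from RefSeq (GRCm38.p6) for 8 of the 10 genes, and Ccna2 and Stmn1 had no entry. The 3 windows below are shown because Top2a and Ncapg2 differed in opposite directions between blood treatments and Cdk1 is, like Mki67, among those that held 3 of the 4 elements. Each is written 5′ to 3′ on the strand of the gene, with the start site at base 251, and capitals mark a match on either strand to 1 of the 4 elements.
Cdk1 (chr10:69352863-69353162, minus strand): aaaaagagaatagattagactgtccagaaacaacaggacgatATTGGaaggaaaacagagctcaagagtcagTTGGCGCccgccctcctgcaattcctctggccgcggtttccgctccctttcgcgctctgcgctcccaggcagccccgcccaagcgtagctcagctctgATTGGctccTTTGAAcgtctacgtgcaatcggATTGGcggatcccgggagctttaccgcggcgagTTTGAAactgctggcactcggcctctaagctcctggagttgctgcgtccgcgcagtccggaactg
Top2a (chr11:99024140-99024439, minus strand): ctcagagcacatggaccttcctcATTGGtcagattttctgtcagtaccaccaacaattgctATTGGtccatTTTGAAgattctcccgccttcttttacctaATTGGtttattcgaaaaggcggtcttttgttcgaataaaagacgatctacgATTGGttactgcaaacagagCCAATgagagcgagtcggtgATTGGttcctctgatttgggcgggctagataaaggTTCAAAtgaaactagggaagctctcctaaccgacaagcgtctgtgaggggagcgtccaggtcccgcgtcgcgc
Ncapg2 (chr12:116405186-116405485, plus strand): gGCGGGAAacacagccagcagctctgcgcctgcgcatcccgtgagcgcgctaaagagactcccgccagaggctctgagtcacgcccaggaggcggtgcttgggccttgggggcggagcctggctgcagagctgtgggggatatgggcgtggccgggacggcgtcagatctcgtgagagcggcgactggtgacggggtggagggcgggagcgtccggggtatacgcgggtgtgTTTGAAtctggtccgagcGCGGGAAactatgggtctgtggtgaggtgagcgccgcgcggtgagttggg
In Cdk1 a TTTGAA lay 15 bases and a CCAAT 48 bases before the start site. In Top2a the nearest TTTGAA and CCAAT lay 23 and 58 bases before it. The Ncapg2 window had a TTTGAA 18 bases before the start, no CCAAT, and 2 matches to TTCCCGC.

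Of the 8 genes with a window, 6 held CCAAT, against 37.4% of all 32851 windows in the table, with 6 matches in Top2a, 4 in Cks2, 3 each in Mki67 and Cdk1, 2 in Ccnb1 and 1 in Pcna. TTTGAA was in 4 of the 8 (Mki67, Top2a, Cdk1 and Ncapg2) and in 17.9% of all windows. TTCCCGC was in 1 of the 8, Ncapg2, and in 4.60% of all windows, and TTGGCGC in 3 of the 8 (Mki67, Ccnb1 and Cdk1) and in 2.45% of all. The Birc5 window held none of the 4 strings. The first letters of TTGGCGC can also be part of ATTGG, as they are in Ccnb1, so matches to these elements are not independent. A match is a run of letters and not a measured binding site.

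The same letters were counted in 2 longer lists that do not contain the 10 genes, one of 50 genes of DNA replication and the G1/S step, of which 38 had a window, and one of 71 genes of mitosis, of which 60 had one. TTTGAA was in 68.2% of windows of the mitosis list and 9.30% of windows of the replication list, and TTCCCGC in 3.03% and 41.9%. CCAAT was in 71.2% and 55.8%, and TTGGCGC in 12.1% and 20.9%. Windows with both CCAAT and TTTGAA made up 56.1% of those of the mitosis list, 6.98% of the replication list and 6.95% of all, and 3 of the 8 genes (Mki67, Top2a and Cdk1) had such a window.

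**Figure D1:**
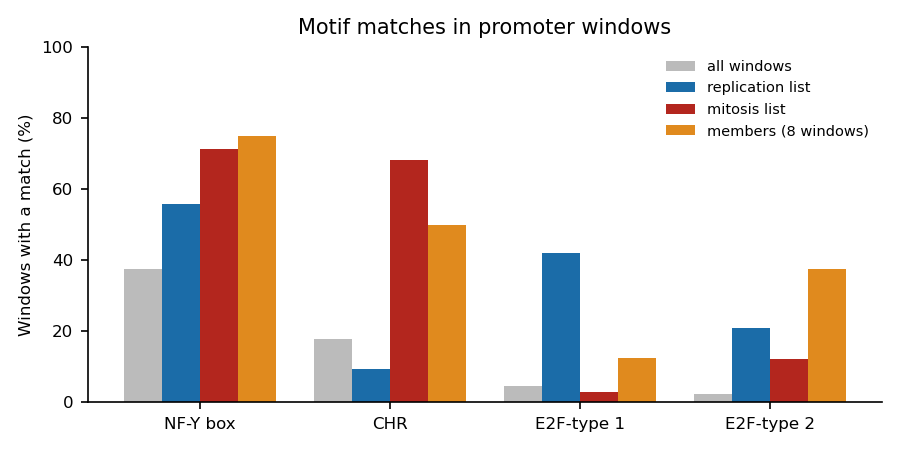
Percent of 300-base promoter windows that held CCAAT (NF-Y box), TTTGAA (CHR), TTCCCGC (E2F-type 1) or TTGGCGC (E2F-type 2) on either strand, for all 32851 RefSeq windows, the replication list, the mitosis list and the 8 member genes with a window. TTTGAA was in 68.2% of mitosis windows and TTCCCGC in 41.9% of replication windows, against 17.9% and 4.60% of all.

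In surface RNA, values were TPM, transcripts per 1000000 of all RNA in the library, summed over the transcripts of each gene. The libraries differed widely in what else they held. Protein-coding transcripts made up 16.9% to 18.1% of TPM in monocytes, 2.00% to 2.88% in B cells, 1.49% to 2.96% in NK cells, 1.14% to 1.93% in HSPC and 0.645% to 1.52% in T cells. In HSPC, 3 short transcripts with the same value, annotated as miRNA, took 74.3% to 83.3% of TPM, against 9.72% to 31.5% in the other 12 libraries. Values were therefore also given as coding TPM, in which protein-coding transcripts alone add to 1000000. The coding TPM of a gene leave out its transcripts not annotated as coding, so the 2 scales differ by more than a factor per library. The number of reads behind the TPM is not given in the sources used here, so no counting error could be set beside them.

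Pcna, the sliding clamp that holds DNA polymerase on its template, had 61.3, 62.7 and 67.4 TPM in the 3 monocyte libraries. It had 3.66, 6.32 and 5.00 TPM in HSPC and 3.70, 6.31 and 9.06 in NK cells. The values were 3.40, 1.61 and 1.31 for B and 1.00, 2.58 and 2.49 for T cells. Monocytes stood above all other libraries, HSPC and NK cells overlapped, and B and T cells overlapped with each other. In coding TPM the monocyte values of 309, 326 and 328 stayed above those of HSPC, 270.2, 307 and 274, by a much smaller step.

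Top2a, the topoisomerase that untangles sister chromatids, reached 81.8, 79.4 and 90.3 TPM in monocytes, the highest mean of the 10 genes there, 83.8 ± 5.75 TPM (SD, n = 3). It had 3.69, 6.52 and 5.23 TPM in HSPC and 1.99, 3.54 and 4.25 in NK cells, which overlapped. B cells had 1.20, 0.850 and 0.941 TPM and T cells 0.253, 0.333 and 0.719. Every B cell value was above every T cell value, as in 45.3% of all genes and 3 of the 10. On the coding scale the order of the first groups had no overlap, with 242, 260.3 and 268 in monocytes, 169, 202 and 188 in HSPC and 81.0, 93.5 and 103 in NK cells. Ncapg2, a subunit of condensin II, which compacts chromosomes early in mitosis, was the lowest of the 10 in monocytes and in HSPC. Its TPM were 18.2, 19.6 and 20.5 in monocytes, 0.822, 1.53 and 1.16 in HSPC and 0.716, 0.885 and 1.19 in NK cells. The B cell values of 0.160, 0.164 and 0.161 lay within the T cell values of 0.0509, 0.222 and 0.150. In coding TPM, monocytes had 59.9, 58.9 and 60.9 and HSPC 51.2, 60.0 and 46.8, and these groups overlapped. Birc5 (survivin), part of the complex that corrects chromosome attachment to the spindle, had 31.8, 36.1 and 39.5 TPM in monocytes, 1.13, 2.00 and 1.48 in HSPC and 0.971, 1.20 and 1.25 in NK cells. Coding TPM of Birc5 were 179, 213 and 218 in monocytes and 99.0, 104 and 90.4 in HSPC. The monocyte values were all above those of HSPC on both scales.

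Cdk1, the kinase that drives entry into mitosis, had 53.3, 59.6 and 58.0 TPM in monocytes, 3.87, 6.82 and 5.23 in HSPC and 1.73, 4.49 and 5.69 in NK cells. B cells had 0.707, 0.614 and 0.265 TPM of Cdk1, T cells 0.113, 0.134 and 0.394. HSPC and NK cells overlapped in TPM, as did B and T cells. In coding TPM, which leave out its transcripts not annotated as coding, HSPC and NK cells came apart. The values were 83.5, 94.8 and 91.7 in HSPC against 24.9, 41.8 and 32.6 in NK cells. Ccna2 (cyclin A2), the partner of Cdk1 and Cdk2 in S and G2 phase, had 46.0, 47.6 and 53.3 TPM in monocytes, 3.43, 5.72 and 5.04 in HSPC and 1.41, 2.11 and 3.91 in NK cells. Ccnb1 (cyclin B1), the mitotic partner of Cdk1, had 30.6, 29.7 and 33.3 TPM in monocytes, 1.21, 2.17 and 1.76 in HSPC and 0.633, 1.32 and 1.82 in NK cells. The lowest value of both cyclins was in T cell replicate 1. Cks2, a small subunit that helps Cdk1 bind its substrates, had 54.2, 42.4 and 54.6 TPM in monocytes, 2.89, 6.47 and 3.51 in HSPC and 5.52, 4.58 and 5.84 in NK cells. Its T cell values, 0.566, 0.795 and 1.60, were on average above its B cell values, 1.02, 0.385 and 0.128, the only gene of the 10 with that order in TPM, though the groups overlapped. In coding TPM, Cks2 was at 306, 251 and 301 in monocytes, 253, 335 and 215 in HSPC and 371, 184 and 197 in NK cells, which all overlapped.

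Mki67, the proliferation marker whose protein coats mitotic chromosomes, had 71.8, 68.1 and 76.0 TPM in monocytes against 2.49, 4.02 and 3.11 in HSPC. NK cells had 1.81, 3.20 and 4.48, B cells 0.630, 0.318 and 0.206 and T cells 0.242, 0.196 and 0.359. Monocytes were far above the rest, HSPC and NK cells overlapped, and B and T cells overlapped. Its coding TPM of 405, 403 and 419 in monocytes were also above the 218, 208 and 190.3 of HSPC. Stmn1 (stathmin), which destabilizes microtubules, had 58.3, 70.2 and 61.6 TPM in monocytes, 4.53, 5.86 and 4.84 in HSPC and 1.70, 3.33 and 4.12 in NK cells. It was the only gene of the 10 whose HSPC and NK values did not overlap in TPM. On the coding scale monocytes, 307, 392 and 305, and HSPC, 388, 294 and 287, overlapped.

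**Figure D2:**
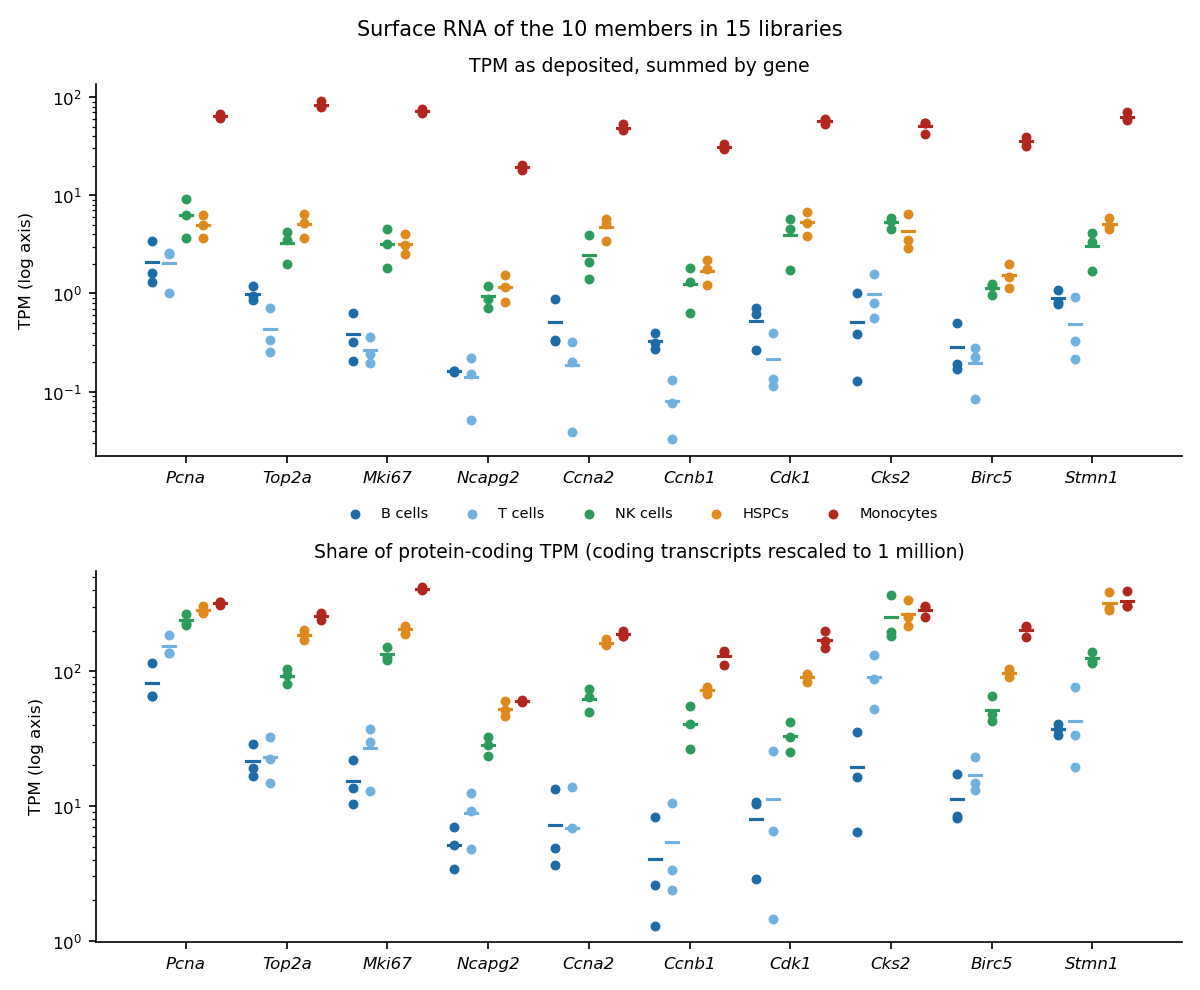
Level of each of the 10 genes in the 15 surface libraries, as TPM of all RNA (top) and as coding TPM (bottom), both on a log axis, with 1 point per library coloured by cell type and a short line at each group's mean; Ccna2 in T cell replicate 1 was 0 in coding TPM and is not drawn. Monocytes lie above all other libraries for 10 of 10 genes in TPM, and above all HSPC libraries for 7 of 10 in coding TPM.

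Together the 10 genes added to 507 to 555 TPM in monocytes, 27.7 to 47.4 in HSPC, 20.2 to 41.6 in NK cells, 4.61 to 9.96 in B cells and 2.60 to 7.36 in T cells. The sums in coding TPM were 2250 to 2422 in monocytes, 1608 to 1856 in HSPC, 934 to 1144 in NK cells, 279 to 541 in T cells and 165 to 292 in B cells. The sums of HSPC and NK cells overlapped in TPM and not in coding TPM. The order of B and T cells also turned with the scale. In coding TPM, 7 of 10 genes had overlapping B and T values with the T cell mean higher. In 2 of 10, Cks2 and Pcna, every T cell library was above every B cell library, as in 18.7% of all genes.

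The first comparison set monocytes against the other 4 cell types. The log2 difference, on the scale log2(TPM + 1), was 3.74 (Ncapg2) to 4.97 (Mki67) over the 10 genes, with a median of 4.40, and in 10 of 10 every monocyte library was above all others, as in 83.6% of all genes. Over 13110 genes tested with limma the median difference was 2.20, and 89.3% of genes were called higher and 4.32% lower at a Benjamini-Hochberg adjusted p under 0.05. In coding TPM the differences were 0.92 (Pcna) to 3.04 (Cdk1), with a median of 2.46 beside 0.28 over all 13694 genes tested, of which 36% were called higher and 16.6% lower.

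The second comparison set HSPC against B, T and NK cells, which shared a sequencing platform. The differences in log2(TPM + 1) were 0.58 (Pcna) to 1.65 (Ccna2), with a median of 1.04 beside -0.11 over all genes, and with a pseudocount of 0.1 they were 0.78 to 2.75, with a median of 2.00. In 1 of 10 genes, Stmn1, every HSPC library was above all 9 others, as in 1.71% of all genes, and over all genes 6.78% were called higher and 18% lower. In coding TPM the differences were 0.99 (Pcna) to 3.65 (Ccna2), with a median of 2.41 beside 0.13, and 27.4% of all genes were called higher and 18.1% lower. With ribosomal RNA and the 3 same-valued transcripts left out of TPM, the median was 2.99 beside 0.66 over all genes. In 9 of 10 genes, all but Cks2, every HSPC library was above every NK library in coding TPM, as in 21.8% of all genes. The median ratio of HSPC to NK means over the 10 genes was 1.34 in TPM and 1.87 in coding TPM.

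The third comparison set monocytes against HSPC, both from bone marrow. The differences in log2(TPM + 1) were 3.14 to 4.13, with a median of 3.43 beside 2.31 over all genes, and 91.4% of all genes were called higher and 0.9% lower. In 10 of 10 genes the monocyte libraries were above all HSPC libraries, as in 90.8% of all genes. On the coding scale the differences were between 0.055 (Stmn1) and 1.05 (Birc5), with a median of 0.33 beside 0.18 over all genes, of which 26.9% were called higher and 15.2% lower. With ribosomal RNA and the 3 same-valued transcripts left out, the median was 1.65 beside 1.17. In coding TPM, 7 of 10 genes had every monocyte library above every HSPC library, as in 37.2% of all genes, and Cks2, Stmn1 and Ncapg2 overlapped. The median ratio of means was 14.5 in TPM and 1.27 in coding TPM.

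The wider lists of non-member genes were tested in the same fits, in which all 3 comparisons share libraries. These lists, too, were chosen with earlier results of these data known, so counts over them are not independent evidence. In monocytes against the other 4 cell types, 50 of 50 replication genes and 71 of 71 mitosis genes rose in TPM, with median log2 differences of 2.98 and 3.55 beside 2.20 over all genes. Only 31 and 41 of them exceeded 1 TPM in 3 of the other 12 libraries, so the rest passed the filter on low values through monocytes. Those 31 and 41 were all called higher, as were 82.9% of the 7769 genes that met this limit. Among replication genes Rrm2, a subunit of ribonucleotide reductase, differed by 4.28 (SE 0.19, limma adjusted p = 2.56e-11), and Tk1, thymidine kinase, by 3.94 (limma adjusted p = 8.13e-11). Among mitosis genes Kif23, a motor of the central spindle, differed by 4.69 (SE 0.13, limma adjusted p = 2.09e-13), and Ube2c, which feeds the anaphase-promoting complex, by 4.60 (limma adjusted p = 9.68e-12). Of 20 tested genes of G1 control and cell cycle brakes 19 were called higher, but only 14 exceeded 1 TPM in 3 of the other 12 libraries, and 13 of these were called. One of them was the antiproliferative gene Btg2, at 3.80 (limma adjusted p = 8.82e-10). The CDK inhibitor Cdkn1a, at 18.2 to 22.2 TPM in monocytes and 0 to 0.731 TPM elsewhere, passed the filter only through monocytes. In coding TPM, 41 of 50 replication genes, 69 of 71 mitosis genes and 9 of 21 G1 and brake genes were called higher, and 3 of the last list were called lower, where 36% of all genes were higher and 16.6% lower. The median differences there were 1.11, 2.39 and 0.57. Of the 31 and 41 genes over that limit outside monocytes, 24 and 40 were called higher in coding TPM, beside 39.3% of the 6184 such genes tested on that scale. Of the 14 G1 and brake genes, 5 were higher and 3 lower, with a median of 0.19 beside 0.28 over those 6184 genes.

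In HSPC against B, T and NK cells, 30 of 50 replication genes and 54 of 71 mitosis genes rose in TPM, with medians of 0.47 and 0.51, and 1 mitosis gene fell, where 6.78% of all genes were called higher and 18% lower. Fitted without monocytes, which lets fewer genes pass the filter, 31 replication and 41 mitosis genes were tested. Their medians were 0.65 and 0.74, beside -0.28 over all genes. Mcm5, part of the replicative helicase, differed by 1.21 (SE 0.23, limma adjusted p = 0.00153) and Tyms, thymidylate synthase, by 1.16 (limma adjusted p = 0.00364). Of mitosis genes Ube2c differed by 1.28 (SE 0.19, limma adjusted p = 2.34e-04) and Ncapd2, a subunit of condensin I, by 1.19 (limma adjusted p = 4.58e-04). In each of these 4 genes the TPM of HSPC overlapped those of NK cells. The gene that fell was Cdc25b, a phosphatase that activates Cdk1, at -0.67 (limma adjusted p = 0.0129), a call lost without HSPC replicate 1 or 3. With ribosomal RNA and the 3 same-valued transcripts left out of TPM its difference was 0.042 (limma adjusted p = 0.908), and 0 mitosis genes were lower. Of the 121 genes of both lists together 84 rose, 44 without HSPC replicate 2 and 54 without HSPC replicate 3. In coding TPM, 47 of 50 and 68 of 71 rose, with medians of 1.83 and 2.13, where 27.4% of all genes were higher and 18.1% lower, and Cdc25b was again the 1 gene called lower.

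Of the G1 and brake genes, 2 of 20 were called higher and 6 lower in HSPC in TPM, beside 6.78% and 18% of all genes. The higher ones were the G1 kinases Cdk6, at 1.72 (limma adjusted p = 3.54e-05), and Cdk4, at 1.21 (limma adjusted p = 0.00900). Without HSPC replicate 2 the call of Cdk4 was lost (limma adjusted p = 0.0599). Btg1, an antiproliferative gene abundant in resting lymphocytes, had 1.09, 2.67 and 1.87 TPM in HSPC, against 17.4, 41.3 and 35.4 in NK cells. B cells had 66.7, 63.5 and 48.4 and T cells 10.6, 36.8 and 25.1. Every HSPC value was below every other surface value of this gene, and its difference was -3.62 (SE 0.34, limma adjusted p = 3.53e-06). Its relative Btg2 was also lower, at -1.47, as were the G1 cyclins Ccnd2 and Ccnd3, at -1.28 and -1.24 (limma adjusted p = 6.00e-04, 0.00367 and 0.0133). In coding TPM 8 of 21 genes of this list were called higher and 7 lower, beside 27.4% and 18.1% of all genes, and Btg1 differed by -4.02 (limma adjusted p = 1.51e-10). With ribosomal RNA and the 3 same-valued transcripts left out of TPM 12 of 20 were called higher and 1 lower, beside 53.2% and 7.46% of all genes, whose median was 0.66. There Btg1 was still lower, at -2.60, while Btg2 at -0.53, Ccnd2 at -0.030 and Ccnd3 at 0.17 were not called (limma adjusted p = 0.137, 0.944 and 0.718). The Ccnd3 call was also lost without HSPC replicate 1 (limma adjusted p = 0.0828).

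**Figure D3:**
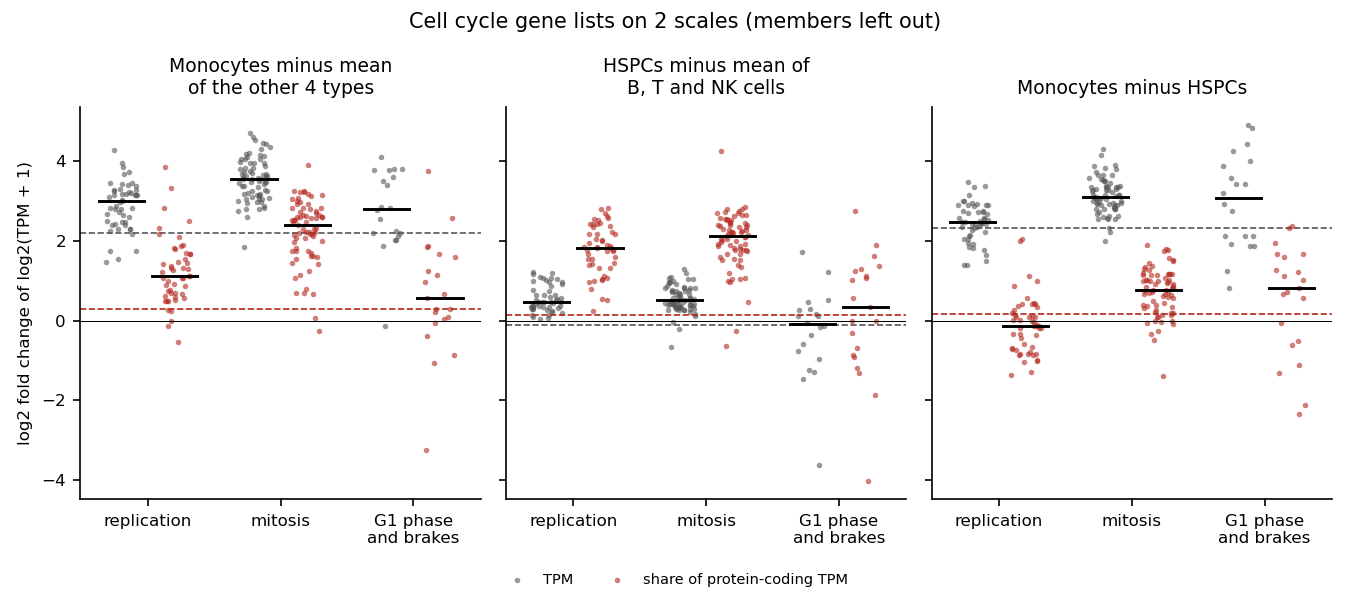
Log2 difference of each gene of the replication, mitosis and G1 and brake lists in the 3 surface comparisons, in log2(TPM + 1) and in log2(coding TPM + 1), with 1 point per gene, a solid line at each list's median and a dashed line at the median of all genes tested on that scale. In monocytes against HSPC the replication and mitosis lists lie above 0 in TPM. On the coding scale the median lies at -0.13 for the replication list and 0.78 for the mitosis list. For the 31 and 41 of these genes over 1 TPM in 3 libraries other than monocytes, the coding medians were -0.34 and 0.56.

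Between monocytes and HSPC the lists differed on the 2 scales. In TPM, 50 of 50 replication, 71 of 71 mitosis and 20 of 20 G1 and brake genes rose in monocytes, as did 91.4% of all genes. In coding TPM, 4 of 50 replication genes were called higher and 10 lower, and 31 of 71 mitosis genes were called higher and 1 lower, beside 26.9% and 15.2% of all genes. Among genes that exceeded 1 TPM in 3 libraries other than monocytes, 1 of 31 replication and 16 of 41 mitosis genes were called higher, beside 30.6% of the 6184 such genes tested on that scale, and 9 and 1 were called lower. In all, 29 of 50 replication genes and 9 of 71 mitosis genes had a negative difference in coding TPM. The summed coding TPM of the replication list were 3488 to 4074 in monocytes and 4558 to 4832 in HSPC, and those of the mitosis list 6971 to 7601 and 5193 to 5451. The genes named next follow the same rule as above, applied to coding TPM after its values had been seen. Lower in monocytes were Ung, which removes uracil from DNA, at -1.37, Tyms at -1.28, Dut, which clears dUTP, at -1.01, and the G1/S cyclin Ccne1 at -0.99 (limma adjusted p = 0.00345, 0.0131, 4.66e-04 and 0.00691). Higher in monocytes were the spindle checkpoint kinase Ttk at 1.90, the cohesin protector Sgo2a at 1.80, the kinetochore gene Spc25 at 1.76 and Kif23 at 1.75 (limma adjusted p = 0.00490, 2.46e-04, 0.00187 and 2.07e-04). The mitosis gene called lower was Ube2s, at -1.39 (limma adjusted p = 0.00672). Of the G1 and brake genes 11 were higher, led by Btg2 at 2.36, Cdkn1a at 2.32 and Btg1 at 1.95, and 4 of 21 were lower, Ccnd2 at -2.34, Cdk6 at -2.11, E2f4 at -1.32 and Cdk4 at -1.11. Of the 14 over 1 TPM in 3 libraries other than monocytes, 8 were higher and 4 lower. Cdkn1a is not among these 14, though it exceeded 1 coding TPM in 10 of the 12 libraries, and Ung, Ttk, Sgo2a and Spc25 were also under 1 TPM in all 12.

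The surface libraries were checked against markers of the isolated cell types, of granulocyte progenitors and of neutrophils. Other cells were not covered by sums here, though 8 of 8 erythroid and 5 of 5 B cell precursor markers were above 0 in HSPC. The 7 B cell markers added to 224 to 350 TPM in B cells and at most 18.7 elsewhere, the 8 T cell markers to 24.8 to 71.8 in T cells and at most 10.4 elsewhere, and the 7 NK cell markers to 74.7 to 221 in NK cells and at most 30.5 elsewhere. The summed TPM of the 7 monocyte markers were 3129 to 3744 in monocytes and at most 32.9 elsewhere. The 7 HSPC markers, none of which was at 0 throughout any group, added to 10.3 to 15.9 TPM in HSPC, 7.26 to 14.2 in NK cells and 26.4 to 31.9 in monocytes, so in TPM the defining markers did not set HSPC apart. In coding TPM the same list had 722 to 789 in HSPC, 325 to 370 in NK cells and 117 to 130 in monocytes. All 5 markers of granulocyte progenitors, cells that divide in the marrow, were found in every group, with 4099 to 6796 coding TPM in monocytes, 9273 to 12393 in HSPC, 461 to 491 in NK cells, 39.3 to 104 in T cells and 1.12 to 3.30 in B cells. The 7 neutrophil markers had 8192 to 8936 coding TPM in monocytes, 969 to 2809 in HSPC and 975 to 2150 in NK cells. The part of other cells in the levels of the 10 genes was not tested.

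The transcripts behind the gene values differed between groups. Retained-intron transcripts, which keep an intron and are not annotated as coding, made up 18.6% to 21.3% of the members' summed TPM in HSPC and 8.99% to 10.9% in monocytes. The shares were 10.2% to 17.4% in NK cells, 11.9% to 16.1% in B cells and 5.01% to 13.3% in T cells. Over all protein-coding genes the share was 7.17% to 8.71% in HSPC and 7.54% to 7.99% in monocytes. For the 10 genes summed, the HSPC range of the retained-intron share lay above those of the other groups. HSPC had the highest mean for no gene with such transcripts. The highest mean was in NK cells for Cdk1 (79.5%, HSPC 73.3%) and in B cells for Ccna2 (57.5%, 44.5%) and Ccnb1 (70.2%, 33.2%). It was in monocytes for Ncapg2 (45.7%, 29.1%) and in T cells for Pcna (13.5%, 10.8%). The summed share also depends on the mix of genes. On average Pcna held 13.4% of the members' TPM in HSPC, 12.1% in monocytes, 20.2% in NK, 30.6% in B and 41% in T cells. No test was made on the share because the genes had been chosen on these libraries.

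Annotated retained-intron transcripts existed for 5 of the 10 genes. In Cdk1 they took 71.3% to 75.4% of TPM in HSPC, 76.8% to 83.1% in NK cells and 43.7% to 50.7% in monocytes. The retained-intron transcript Cdk1-203 alone had 2.21 to 3.77 TPM in HSPC and 14.7 to 17.9 in monocytes, beside 0.627 to 1.42 and 19.8 to 27.2 for the coding transcript Cdk1-202. In Ccna2 the retained-intron share was highest in B cells by its mean, at 38.3% to 78.6% of a low total. It was 41.5% to 48.3% in HSPC and 0% to 9.21% in monocytes, and a transcript annotated for nonsense-mediated decay took 0% to 2.80% and 20.6% to 31.7%. In Ncapg2 the order was the other way, 24.3% to 34.0% in HSPC and 41.7% to 49.2% in monocytes. Ccnb1 had 39.6% to 90.5% in B cells, also from a low total, 30.8% to 37.2% in HSPC and 21.4% to 35.6% in monocytes, of which the last 2 overlapped. Pcna did not exceed 19.7% in any library. Kallisto assigns reads to transcripts that share exons, so the split between transcripts of 1 gene is an estimate.

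**Figure D4:**
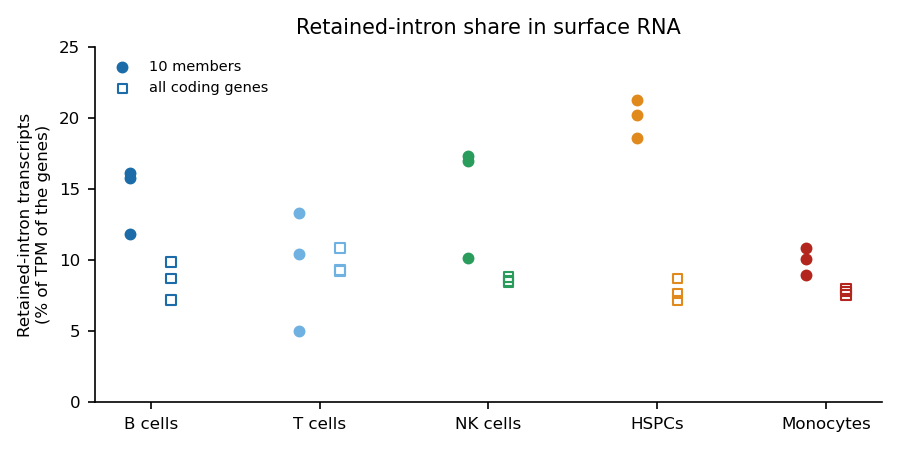
Percent of TPM in annotated retained-intron transcripts per surface library by cell type, for the 10 genes summed (filled circles) and for all protein-coding genes (open squares), with 1 mark per library. For the 10 genes summed, HSPC libraries lie at 18.6% to 21.3% and monocyte libraries at 8.99% to 10.9%. HSPC had the highest mean share for no gene taken alone.

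In blood, values were expected counts, RSEM's estimate of reads per gene, and CPM, counts per 1000000 after scaling by edgeR's TMM factors. Libraries held 4686426 to 9055797 expected counts, of which 50.5% to 57.0% belonged to 1 ribosomal RNA gene. The 10 genes were low there. In TPM they added to 7.52 to 9.12 in ct, 8.76 to 12.1 in WT and 7.43 to 9.08 in Y, and Pcna alone made up 51.4% to 65.9% of the sum in any library. By edgeR's filter on low counts 6 of the 10 passed (Mki67, Top2a, Cks2, Ncapg2, Pcna and Stmn1), and for the other 4 only values are given.

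The ct libraries had 3, 4 and 7 expected counts of Cks2, the WT libraries 20.8, 21.9 and 15 and the Y libraries 4, 10 and 9. As CPM, ct was at 0.357, 0.599 and 0.830, WT at 2.29, 2.79 and 2.12 and Y at 0.873, 1.30 and 1.16. Every WT library was above every other, and every Y library was above every ct library by a narrow margin. The log2 difference was 1.98 (SE 0.36) for WT against ct, 0.92 (SE 0.43) for Y against ct and -1.06 (SE 0.33) for Y against WT. Its counts were so low that 3 counts, the limit a count of 0 allows, equalled the value of ct replicate 1. Without ct replicate 3 the differences from ct were 2.33 for WT and 1.28 for Y.

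Top2a was at 109, 52.7 and 133 expected counts under ct, at 94.5, 87.0 and 72.3 under WT and at 84.3, 178 and 192 under Y. As CPM it was at 13, 7.94 and 15.8 under ct, 10.4, 11.0 and 10.2 under WT and 18.3, 23.2 and 24.8 under Y. All 3 Y libraries were above the other 6, while ct and WT overlapped. The log2 difference was 0.85 (SE 0.17) for Y against ct and 1.09 (SE 0.17) for Y against WT, and -0.24 (SE 0.18) for WT against ct. Ncapg2 went the other way, with ct at 18, 14 and 20 expected counts, WT at 12, 12 and 6 and Y at 1, 3 and 2. Its CPM were 2.14, 2.10 and 2.37 for ct, 1.31, 1.52 and 0.848 for WT and 0.218, 0.39 and 0.258 for Y. The groups did not overlap and stood in the order ct, WT, Y, with Y at or under the 3-count limit in each library. The log2 differences were -0.83 (SE 0.31) for WT against ct and -2.82 (SE 0.44) for Y against ct, of which the second depends on counts near 0 and was -3.10 without Y replicate 2.

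Pcna, the most abundant of the 10 per length in blood, had 20.1, 18.1 and 20.9 CPM under ct, 21.2, 24.6 and 23.2 under WT and 20.7, 19.9 and 20.3 under Y. In CPM, WT stood above the other groups with no overlap, by 0.21 (SE 0.096) on the log2 scale against ct. Mki67 had 10.9, 11.8 and 9.25 CPM under ct, 12.8, 11.9 and 12.2 under WT and 8.51, 9.24 and 13.3 under Y, with WT just above ct and Y overlapping both. Stmn1 had 1.67, 2.70 and 1.66 CPM under ct, 2.95, 2.66 and 2.40 under WT and 1.96, 1.95 and 2.32 under Y, and the Y libraries were all below WT. The log2 difference of Stmn1 was 0.45 (SE 0.27) for WT against ct, whose libraries overlapped.

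The 4 genes that did not pass the filter had low counts. Ccna2 was at 3.13, 5.29 and 3.34 expected counts for ct, 10.4, 10.8 and 5 for WT and 3.51, 1 and 4.17 for Y. For Birc5 the ct libraries had 1, 6 and 2, the WT libraries 6, 11 and 4 and the Y libraries 1, 2 and 1, and every Y value in CPM was below every WT value. Expected counts of Cdk1 were 4, 0 and 4 with ct, 7, 1 and 5 with WT and 2, 0 and 1 with Y, and Cdk1 was at 0 in ct replicate 2 and in Y replicate 2. Ccnb1 was counted at 3, 1 and 4 for ct, 6, 1 and 4 for WT and 1, 2 and 4 for Y. The groups overlapped for both genes.

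**Figure D5:**
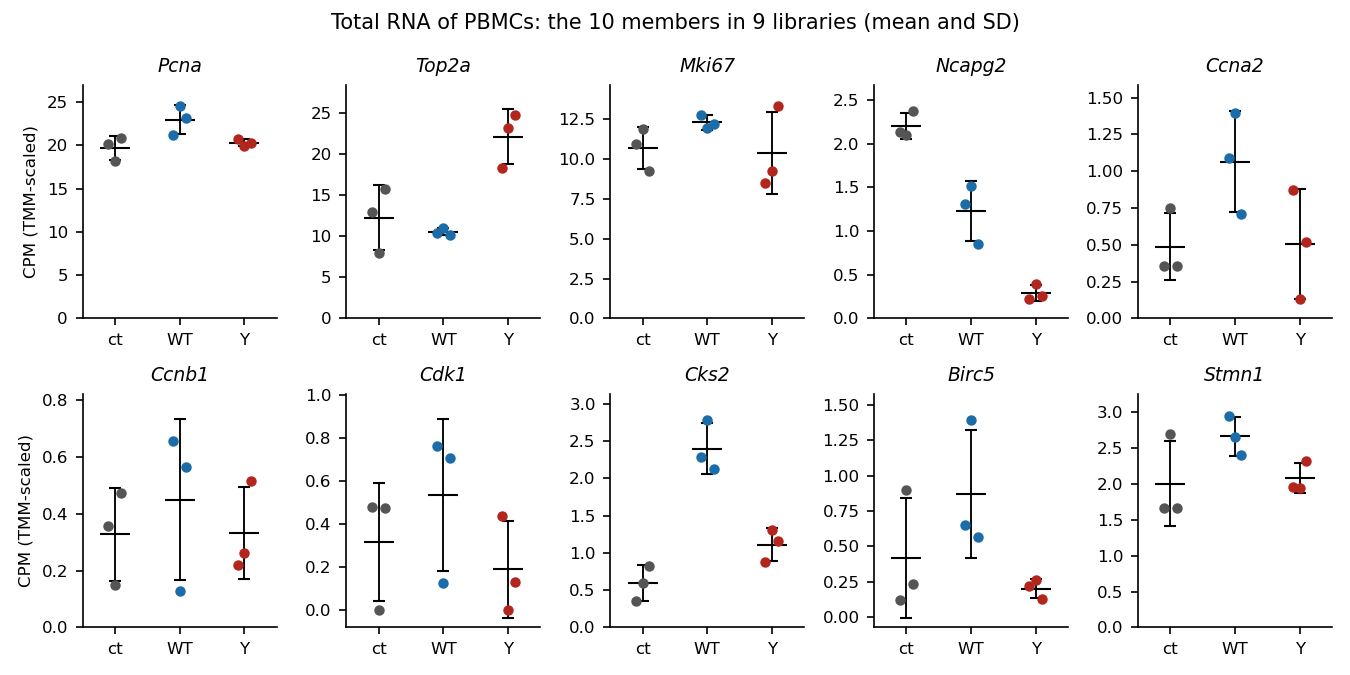
CPM of each of the 10 genes in the 9 PBMC libraries, on linear axes of their own, with 1 point per library and bars for the mean ± SD of each treatment (n = 3). Cks2 is highest in WT at 2.12 to 2.79, Top2a highest in Y at 18.3 to 24.8, and Ncapg2 lowest in Y at 0.218 to 0.39.

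In WT against ct, 3 of the 10 genes had every WT library above every ct library (Mki67, Cks2 and Pcna) and 1 below (Ncapg2), in CPM. The same held for 7.62% of 11635 genes above and 8.62% below, and edgeR called 0.765% higher and 1.6% lower. In Y against ct, 2 were above (Top2a and Cks2) and 1 below (Ncapg2), beside 5.70% and 7.55% of all genes, and 0.266% of genes were called higher and 0.438% lower. In Y against WT, 1 was above (Top2a) and 5 were below (Cks2, Ncapg2, Birc5, Pcna and Stmn1), beside 8.54% and 8.75% of all genes, and 0.438% were called higher and 0.817% lower. Birc5 did not pass the filter, so only 4 of the 5 are among the genes behind these shares. In the deposited TPM, which divide by transcript length and are not TMM-scaled, fewer separations from ct were seen. There Cks2 was above in WT against ct, Ncapg2 below in Y against ct, and Mki67 and Pcna (WT against ct), Ncapg2 (WT against ct), and Top2a and Cks2 (Y against ct) overlapped. In Y against WT, Top2a was above and 6 genes were below, the same 5 and Ccna2. The shares of all genes above are in CPM and none is given for the deposited TPM, so these counts only describe the 10. The mean CPM was highest in WT for 8 of the 10 genes, in Y for Top2a and in ct for Ncapg2. These comparisons share libraries and are not independent of each other. Among the 15 pairs of the 6 genes that passed, 7 had a negative correlation of log2 CPM over the 9 libraries, from -0.71 (Top2a and Ncapg2) to 0.76 (Cks2 and Pcna), with a median of 0.0062. The points share libraries and depth, so these are descriptions.

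The wider lists did not reach the threshold in blood. Of the 61 replication and mitosis genes that passed the filter, 34 of 50 and 27 of 71, edgeR's quasi-likelihood test called 0 in each of the 3 comparisons, and DESeq2 also called 0. At an unadjusted p under 0.05, 4 were higher and 1 lower in WT against ct, beside 5.78% and 5.97% of all genes. The counts were 2 and 5 in Y against ct, beside 3.77% and 4.84%, and 1 and 9 in Y against WT, beside 5.6% and 6.15%. The median log2 difference of the replication list was 0.24 in WT against ct, with 29 of 34 genes above 0, beside 0.0041 over all genes. In Y against ct it was 0.046, with 19 of 34 above 0, and in Y against WT -0.16, with 27 of 34 below 0. The mitosis list had medians of -0.011, -0.13 and -0.12 in WT against ct, Y against ct and Y against WT, with 14, 21 and 18 of 27 genes below 0.

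Of the 18 G1 and brake genes that passed the filter, edgeR called 1 in WT against ct, 0 in Y against ct and 2 in Y against WT, and DESeq2 called 0. Over all genes edgeR called 0.765% higher and 1.6% lower, 0.266% and 0.438%, and 0.438% and 0.817%, in that order of comparisons. At an unadjusted p under 0.05 the count in Y against ct was 1, beside 3.77% of all genes higher and 4.84% lower. Cdkn1a had 4.28, 6.14 and 3.91 CPM under ct, 8.62, 6.59 and 8.91 under WT and 4.15, 4.69 and 3.61 under Y. It was higher in WT than in ct by 0.77 (SE 0.19, edgeR adjusted p = 0.0410) and lower in Y than in WT, at -0.95 (SE 0.20, edgeR adjusted p = 0.0275). Every WT library was above the other 6. Btg2 had 81.2, 84.8 and 84.0 CPM under ct, 103, 93.4 and 96.4 under WT and 74.0, 77.2 and 75.0 under Y, and was lower in Y than in WT, at -0.37 (SE 0.080, edgeR adjusted p = 0.0302). These 3 calls were near the threshold. DESeq2 gave adjusted p of 0.125, 0.0633 and 0.0530, and over all alternatives the edgeR and DESeq2 adjusted p ran from 0.00234 to 0.165, from 0.000108 to 0.185 and from 0.0170 to 0.147. Left out 1 at a time, the first call held without ct replicate 2 (0.0182) or WT replicate 2 (0.0331) and was lost without any other library. The second was lost without WT replicates 1 or 3 or any Y library, and the third without any WT or Y library.

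Relatives and partners of the members were measured beside them. Of these, 9 passed the filter and edgeR called 0 in each comparison, beside the shares of all genes given above. Top2b, a topoisomerase related to Top2a, had mean CPM of 56.0 in ct, 50.9 in WT and 56.4 in Y, and edgeR did not call it (adjusted p = 0.560 for Y against WT). The condensin II subunits Ncapd3 and Ncaph2 had mean CPM of 14.1 and 12.7 for ct, 12.2 and 11.8 for WT, and 13.4 and 12.4 for Y. Neither was called by edgeR in Y against ct, at -0.09 (adjusted p = 0.927) and -0.05 (adjusted p = 0.964), the comparison in which Ncapg2 had its largest difference. Every Y library was below every WT library for Lig1, at -0.89, and Smc2, at -0.35, as in 8.75% of all genes. For Lig1 every Y library was also below every ct library, at -0.60, as in 7.55% of all genes. None of these was called (edgeR adjusted p = 0.254, 0.642 and 0.687), and the libraries of the other relatives overlapped.

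The genes most like the members were taken by the correlation of log2 CPM with the mean of the 6 genes that passed, over the 9 libraries. They were Csf1 (0.966), Dennd5b (0.964), Creb5 (0.957), Slc38a2 (0.941) and Gm37472 (0.907). These are the highest of all genes tested and were picked for it.

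Markers of other blood cells were summed as raw expected counts, without a test. The 7 neutrophil markers, all found in each group, added to 547 to 816 expected counts in ct, 586 to 710 in WT and 1068 to 1695 in Y, whose libraries held 4686426 to 7481970 expected counts in all, against 6825519 to 8678974 in ct and 7800347 to 9055797 in WT. The 8 erythroid markers, also all found, added to 55633 to 64131 in ct, 34056 to 42708 in WT and 23175 to 36794 in Y, and the 5 platelet markers to 2936 to 3662, 2030 to 2522 and 1492 to 2518. The 5 markers of granulocyte progenitors had 2 to 8 counts in any library, with Ms4a3 at 0 in ct and WT and Elane and Ctsg at 0 in ct and Y. The 7 HSPC markers had 52 to 85.2 counts in ct, 61 to 78 in WT and 41 to 79 in Y, and 1 of them, Mecom, was at 0 in ct and WT. The part of these cells in the differences of Top2a, Cks2 and Ncapg2 was not tested.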

How the data were processed

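Surface RNA was measured in 15 libraries and PBMC total RNA in 9. For the surface libraries the authors trimmed reads, removed barcode duplicates and quantified transcripts with Kallisto, and the deposited values are TPM. For PBMC the authors deposited RSEM expected counts and TPM per gene; the submitters' processing notes name Trim Galore, STAR, featureCounts and RSEM with hg38 and mm10, and the study's methods do not describe these libraries. Gene identifiers matched GRCm38. The members and the lists were chosen with earlier results of these data known.

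Expected counts were rounded, filtered with filterByExpr and fitted in edgeR 4.0.16 (R 4.3.3) over all 9 libraries, with TMM scaling and the quasi-likelihood test. TPM were summed by gene name, kept above 1 TPM in at least 3 libraries, and fitted as log2(TPM + 1) with limma 3.58.1 over all 15 libraries. Folds on that scale understate changes of low genes. Coding TPM kept only the protein-coding transcripts of each gene and rescaled them to 1000000. P-values were adjusted by Benjamini-Hochberg over all genes tested, with a threshold of 0.05, and DESeq2 1.42.0 was an alternative. Per list and comparison, the text names some of the up to 4 called genes with the largest difference in each direction. The scripts were tested on simulated data. No 2 PBMC replicates agreed within sampling noise and no 2 surface replicates held the same values (the former could not be tested on TPM), and replicates were also left out in turn. Promoter windows were searched for exact strings.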

Additional observations from a re-analysis of the deposited data

How the results depend on the processing

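Counts of the 121 replication and mitosis genes called were recomputed under each alternative. In PBMC, without a filter on low counts, 1 gene was called higher in WT against ct and 1 lower in Y against WT, in place of 0. DESeq2's test, its size factors, removal of the ribosomal RNA gene and each library left out gave 0, a range of 0 to 0. In surface RNA, monocytes against HSPC gave 35 genes higher and 11 lower in coding TPM, in place of 121 and 0. With ribosomal RNA and the 3 same-valued transcripts removed, HSPC against B, T and NK cells gave 0 lower, in place of 1. Leaving out 1 library gave 83 to 121 higher in monocytes against the other 4 cell types and in monocytes against HSPC, 44 to 90 higher in HSPC against B, T and NK cells, and 0 to 1 lower there. The value of 83 came from leaving out a monocyte library, since only 83 of the genes then passed the filter.

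Between HSPC and B, T and NK cells, removal of ribosomal RNA and those 3 transcripts reversed Ccnd3 (0.17), Cdc25b (0.042), Smc4 (1.42) and Top2b (0.73). Between monocytes and HSPC, 38 of the 121 genes were negative in coding TPM and 0 in TPM, among them Ung, Tyms, Dut, Ccne1 and Ube2s, given above, and Cks1b (-0.0067), Fen1 (-0.66) and Lig1 (-0.045). These 2 alternatives change what TPM is relative to, and coding TPM also leaves out each gene's own transcripts not annotated as coding. The cause was otherwise not tested. No surface difference of the 10 genes reversed, but a pseudocount of 0.1 moved 23 of 30 by more than the spread between replicates. Coding TPM moved 29 that far, and removal of ribosomal RNA and the 3 same-valued transcripts moved 27. With the pseudocount of 0.1 the medians were 5.42 in monocytes against the other 4 cell types (4.40 with 1) and 3.83 in monocytes against HSPC (3.43). In PBMC, leaving out 1 library moved 4 differences of the 10 genes that far, those of Cks2 and Ncapg2 given above and Mki67 in Y against WT, at -0.46 without Y replicate 3. For HSPC against B, T and NK cells the median of all genes was -0.11 in TPM, 0.13 in coding TPM and 0.66 with those transcripts removed.

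The correlations of libraries with the same number were -0.061 to 0.059 in PBMC (0 of 9 pairs over 0.1) and -0.264 to 0.472 on the surface (6 of 30). T and NK cells, which no comparison sets against each other, varied together by number in 3 of 3 pairs (0.472, 0.212 and 0.316), a hint from the data that no label explains. Both are on the same side of HSPC against B, T and NK cells, so this bears on the spread there. No other pair of groups was over 0.1 in 3 of 3 pairs. T cells and HSPC, on opposite sides of that comparison, had 0.188, 0.103 and 0.011. With the replicate number as a block, 0 replication and mitosis genes were called in PBMC, and in surface RNA 121 were called higher in monocytes against the other 4 cell types, 121 in monocytes against HSPC and 83 in HSPC against B, T and NK cells. The block ended the Cdkn1a call of WT against ct (adjusted p = 0.0646) and the Btg2 call of Y against WT (0.0621).

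Low counts limit Cks2, Ncapg2, Ccna2, Ccnb1, Cdk1 and Birc5 in PBMC. Surface depth is not given in the sources used here.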
